A study of Mus musculus with 40 samples.

Results

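Matrix metalloproteinases (MMPs) and their tissue inhibitors (TIMPs) were followed in 40 RNA sequencing libraries of cultured mouse melanoma cells, in 2 libraries of each of 20 groups. The genes were chosen by name, as 7 MMPs (Mmp2, Mmp3, Mmp9, Mmp10, Mmp13, Mmp14 and Mmp15) and 3 inhibitors (Timp1, Timp2 and Timp3). Matching the Ensembl identifiers of the count table to mouse gene symbols found all 10 of these genes among 51789, and the choice used no threshold on a measured value.

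MMPs are zinc-dependent endopeptidases that are made as inactive precursors and cleave collagens, laminins, fibronectin and other proteins of the extracellular matrix. They are grouped by substrate and build into gelatinases (Mmp2, Mmp9), stromelysins (Mmp3, Mmp10), collagenases (Mmp13) and membrane-type enzymes (Mmp14, Mmp15), which stay anchored in the plasma membrane. TIMPs are secreted proteins that block the active site of MMPs, and Timp2 also bridges the precursor of Mmp2 to Mmp14 at the cell surface, where the precursor is activated. In melanoma, these enzymes are known for breaking down basement membrane and dermal collagen during invasion.

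The groups came from B16-F10 cells and from cell lines of genetically engineered melanomas. B16-F10 was measured as a control clone (Ctrl) and as a clone labelled Bmal1 KO, both obtained from another laboratory. YUMM2.1 (with the alleles BrafV600E, Cdkn2a+/- and BcatSTA/+ among others) was transduced with an empty vector (EV), with WT-Bmal1 or with dHLH-Bmal1, a Bmal1 without its helix-loop-helix DNA-binding domain that acts as a dominant negative on Clock-Bmal1, and the same constructs were put into aC3, a single CRISPR clone of YUMM2.1 described as Bmal1-null, and into YUMM1.7 (with BrafV600E and Cdkn2a-/- among others). All construct cells of YUMM2.1 and aC3 were sorted for the GFP that the vector carries. In a further set, YUMM2.1 EV, WT and dHLH cells each carried, under puromycin selection, a scrambled hairpin (shNC) or a hairpin against Myh9, the heavy chain of non-muscle myosin IIA (shMyh9#2 or shMyh9#4). Bmal1 is the product of Arntl and, with Clock, the activator of the circadian clock, and the comparisons ask what its loss, its re-expression, its dominant negative form and the loss of Myh9 do to expression.

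Library totals ran from 3643332 to 22970049 counts with a median of 10021164.5, so that 1 CPM, a count scaled to the library total, stood for 3.64 to 22.97 counts. Levels below are CPM after TMM scaling over all 40 libraries. Changes are log2 fold changes ± SE from edgeR's quasi-likelihood F test, and a gene is said to rise or fall where the Benjamini-Hochberg adjusted p over all genes tested was under 0.05. The duplicates are described as biological, but the labels do not say what they share, and an exact permutation test of 2 against 2 libraries cannot go below p = 0.333, so none was run. That value belongs to groups whose libraries do not overlap, so statements of no overlap below only describe the levels. The share of all genes without overlap was not counted. Read counts of bulk cultures cannot tell fewer expressing cells from less RNA per cell.

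Several libraries stood apart. The YUMM2.1 library labelled EV replicate 1 was closer to WT replicate 1 (chi-square per degree of freedom over genes, 8.63) than to EV replicate 2 (22.2), and EV replicate 2 was closest to WT replicate 2 (4.19). Sox9, a transcription factor of the neural crest, stood at 18.4 and 87.5 CPM in the libraries labelled EV and at 19.6 and 85.6 CPM in those labelled WT. The likeness also followed the replicate number, since deviations of same-numbered YUMM2.1 libraries from their group means correlated at r = 0.181 to 0.393 over genes in the 3 pairs of groups, and an exchange of labels and a difference shared by replicates of 1 number cannot be told apart here. Results on these groups are therefore also given with the labels of EV replicate 2 and WT replicate 1 exchanged and without both libraries. The libraries labelled Bmal1 KO of B16-F10 held 326 and 240 counts of Arntl against 319 and 221 in Ctrl, and their replicates differed more than those of any other group (chi-square per degree of freedom, 96.5 against 2.68 to 22.2). The position of the lesion is not given in the sources used here, and reads from the 3′ end of a transcript check no lesion elsewhere in the gene. In aC3, Arntl was at 32.8 and 30.3 CPM with EV, above the 16.02 and 13.95 of YUMM2.1 EV cells, and at 18.2 and 17.4 with WT-Bmal1, so its counts show neither the loss in the clone nor the construct, and what a 3′ read counts of either is not given in the sources used here. The hairpins lowered Myh9 from 697 and 665 CPM in EV shNC cells to 231 and 246 with shMyh9#2 and to 487 and 475 with shMyh9#4. In WT cells it went from 996 and 953 CPM with shNC to 234 and 242 with shMyh9#2 and 537 and 473 with shMyh9#4. In dHLH cells it was at 907 and 877 CPM with shNC, 292 and 266 with shMyh9#2 and 681 and 645 with shMyh9#4. The last was near the level of EV shNC cells.

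The labelled cell type was checked with melanocytic genes. B16-F10 libraries carried a summed 19656 to 26032 CPM of 7 melanocytic markers. The sum was 31.8 to 556 CPM in YUMM2.1 and 450 to 620 CPM in aC3, where only Sox10 and Mitf had a median of 1 CPM or more. Mlana and Tyrp1 were at 0 counts in both, and Dct also in aC3. In YUMM1.7 the sum was 10.7 to 14.8 CPM, only Mitf had a median of 1 CPM or more, and Mlana, Tyrp1 and Dct were at 0. Summed markers of macrophages and neutrophils (1.13 to 7.11 CPM), of endothelium (3.79 to 26.5 CPM) and of keratinocytes (at most 1.76 CPM) were low in all groups. Summed fibroblast genes, with Col3a1 as the highest, reached 752 and 606 CPM in YUMM2.1 dHLH cells against 299 and 263 in EV cells, and 663 to 713 CPM in YUMM1.7. In YUMM2.1 the sum was mostly collagen, with medians of 326 CPM for Col3a1 and 57.0 for Col1a1. There, Pdgfra and Pdgfrb had medians of 3.95 and 4.66 CPM, and Dcn was at 0 counts in 14 and Lum in 21 of 24 libraries. YUMM1.7 had medians of 539 CPM for Col3a1, 103 for Pdgfra and 37.0 for Pdgfrb, and 22 to 116 counts of Dcn. Its Col1a1 (median 4.19 CPM) and Lum (0 to 4 counts) were low.

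Mmp13, Mmp3 and Mmp10 lie on the plus strand of a cluster of 9 Mmp genes on chromosome 9, at 7272514 to 7283331, 7445822 to 7455975 and 7502352 to 7510240 (GRCm38, the build of mm10). Mmp2 (8, 92827291 to 92853420), Mmp15 (8, 95352268 to 95375080), Mmp9 (2, 164940780 to 164955850) and Mmp14 (14, 54431612 to 54445364) overlap no other gene. Timp1 (X, 20870166 to 20874735) lies within Syn1 and Timp2 (11, 118301069 to 118355740) overlaps Cep295nl, in both cases without shared exons. Timp3 (10, 86300372 to 86349506) shares exon sequence with Syn3 on the opposite strand, and the strand setting of the counting is not given in the sources used here, so reads of Syn3 cannot be told apart from those of Timp3.

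RefSeq promoter windows (GRCm38.p6, 250 bases before to 50 bases after the start) matched 8 of the 10 genes, without Mmp2 and Mmp9. The AP-1 motif TGANTCA, searched on both strands, occurred in the windows of Mmp3, Mmp10 and Mmp13 and in 7.81% of all 32851 windows. The last 100 bases before the start of these 3 genes are shown because the neighbours carry the motif at like distances while their transcripts differed widely in level, with capitals for the AP-1 motif and for the PEA3 motif AGGAAG.
Mmp3, chr9:7445722-7445821, plus strand: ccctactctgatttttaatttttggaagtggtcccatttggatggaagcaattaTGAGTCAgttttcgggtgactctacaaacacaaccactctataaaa
Mmp10, chr9:7502242-7502341, plus strand: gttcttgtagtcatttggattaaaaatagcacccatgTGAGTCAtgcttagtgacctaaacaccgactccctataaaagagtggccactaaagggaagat
Mmp13, chr9:7272414-7272513, plus strand: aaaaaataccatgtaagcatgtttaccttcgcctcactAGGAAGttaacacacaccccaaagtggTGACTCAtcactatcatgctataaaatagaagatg

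The AP-1 motif began at position -46, -63 and -35 from the start in Mmp3, Mmp10 and Mmp13. A match describes the letters and not a bound site. PEA3 occurred in the windows of Mmp3, Mmp13, Mmp14, Timp1 and Timp3, and in 35.4% of all windows. The E-box CACGTG (7.15% of all windows), the CRE TGACGTCA (1.79%) and the CArG box (1.63%) occurred in none of the 8. Mmp15 and Timp3, apart from the scarce Mmp9 the members with the widest span of means between groups of YUMM2.1 cells, are shown over 250 bases before the start, where Mmp15 held none of the motifs and Timp3 held 1 PEA3 motif, in capitals.
Mmp15, chr8:95352046-95352295, plus strand: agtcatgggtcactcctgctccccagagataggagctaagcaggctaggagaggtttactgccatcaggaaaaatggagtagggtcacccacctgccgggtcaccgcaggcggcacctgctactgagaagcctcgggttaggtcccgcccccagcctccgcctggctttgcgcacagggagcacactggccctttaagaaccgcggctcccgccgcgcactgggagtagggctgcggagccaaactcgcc
Timp3, chr10:86300162-86300411, plus strand: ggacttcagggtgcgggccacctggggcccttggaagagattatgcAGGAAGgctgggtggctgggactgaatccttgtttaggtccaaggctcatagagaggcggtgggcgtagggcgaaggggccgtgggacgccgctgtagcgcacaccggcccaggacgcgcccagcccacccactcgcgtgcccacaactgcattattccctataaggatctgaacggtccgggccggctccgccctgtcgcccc

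Of the gelatinases, Mmp2 was ordered by line and Mmp9 was not. Mmp2, which cleaves denatured collagen and type IV collagen, was at 1.24 to 1.84 CPM in the B16-F10 libraries, 4.79 to 10.7 in YUMM1.7, 32.2 to 44.9 in aC3 and 54.3 to 149 in all YUMM2.1 groups. Its highest mean, 147 CPM ± 2.66 (SD, n = 2), was in WT shNC cells and its lowest, 1.30 ± 0.0831, in the B16-F10 libraries labelled KO. Mmp9, with the same substrates, was scarce everywhere, with 5 libraries at 0 counts and no library above 153 counts. Within YUMM2.1 cells it covered the range of all other lines, with its highest levels, 9.10 and 10.3 CPM, in WT shMyh9#2 cells, and both EV shNC libraries were at 0, which with a floor of 3 counts allows up to 0.352 CPM on average.

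The stromelysins, which cleave proteoglycans, fibronectin and the precursors of other MMPs, were absent or nearly so from B16-F10, with 1 count of Mmp3 and none of Mmp10 in its 4 libraries. Mmp3 was highest in YUMM1.7, at 69.6 and 69.8 CPM in EV, 48.4 and 44.4 in WT and 88.7 and 88.3 in dHLH cells, and these 3 groups held the top 3 places without overlap between them. All YUMM2.1 and aC3 libraries lay between 13.7 and 36.5 CPM. Mmp10 had the opposite order between these lines, with 0.205 to 0.976 CPM in YUMM1.7 and 2.67 to 19.03 in YUMM2.1 and aC3. Mmp13, a collagenase, had 28 counts in all 40 libraries, at most 5 in 1 library, and entered no test.

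The membrane-type enzymes had unlike patterns. Mmp14, the activator of Mmp2, was present in every library between 72.2 and 356 CPM, and its means spanned only 4.75-fold, from 351 CPM in YUMM1.7 dHLH cells to 73.9 in YUMM2.1 dHLH shMyh9#4 cells. Mmp15, a related enzyme that is less studied, spanned 85.0-fold, from 177 CPM ± 3.96 in aC3 dHLH cells to 2.08 ± 0.787 in YUMM1.7 WT cells. It was above 100 CPM in aC3 and in the YUMM2.1 libraries labelled EV and WT, and at 1.53 to 3.15 CPM in B16-F10 and YUMM1.7. Within the sum of the 7 MMPs in CPM, which counts transcripts without regard to their length, Mmp14 made up 96.7 to 98.1% in B16-F10.

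Among the inhibitors, Timp2 was the most abundant, with 459 to 3108 CPM and 65.0 to 97.0% of the summed CPM of the 3 TIMPs. Timp1 was at 1.49 to 3.86 CPM in B16-F10 and at 137 to 358 CPM in every other library. Timp3, which binds to the extracellular matrix and also inhibits ADAM proteases, ran from 25.0 CPM ± 2.08 in the B16-F10 libraries labelled KO to 394 ± 19.2 in YUMM2.1 dHLH shNC cells. Of the 19 steps between neighbouring groups in order of mean, the libraries did not overlap in 9 for Mmp15, in 8 for Mmp2, in 7 each for Timp2 and Timp3, in 6 each for Mmp3, Mmp14 and Timp1, in 5 for Mmp10, in 4 for Mmp9 and in none for Mmp13, so most neighbours in each order did not differ beyond their spread.

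**Figure D1:**
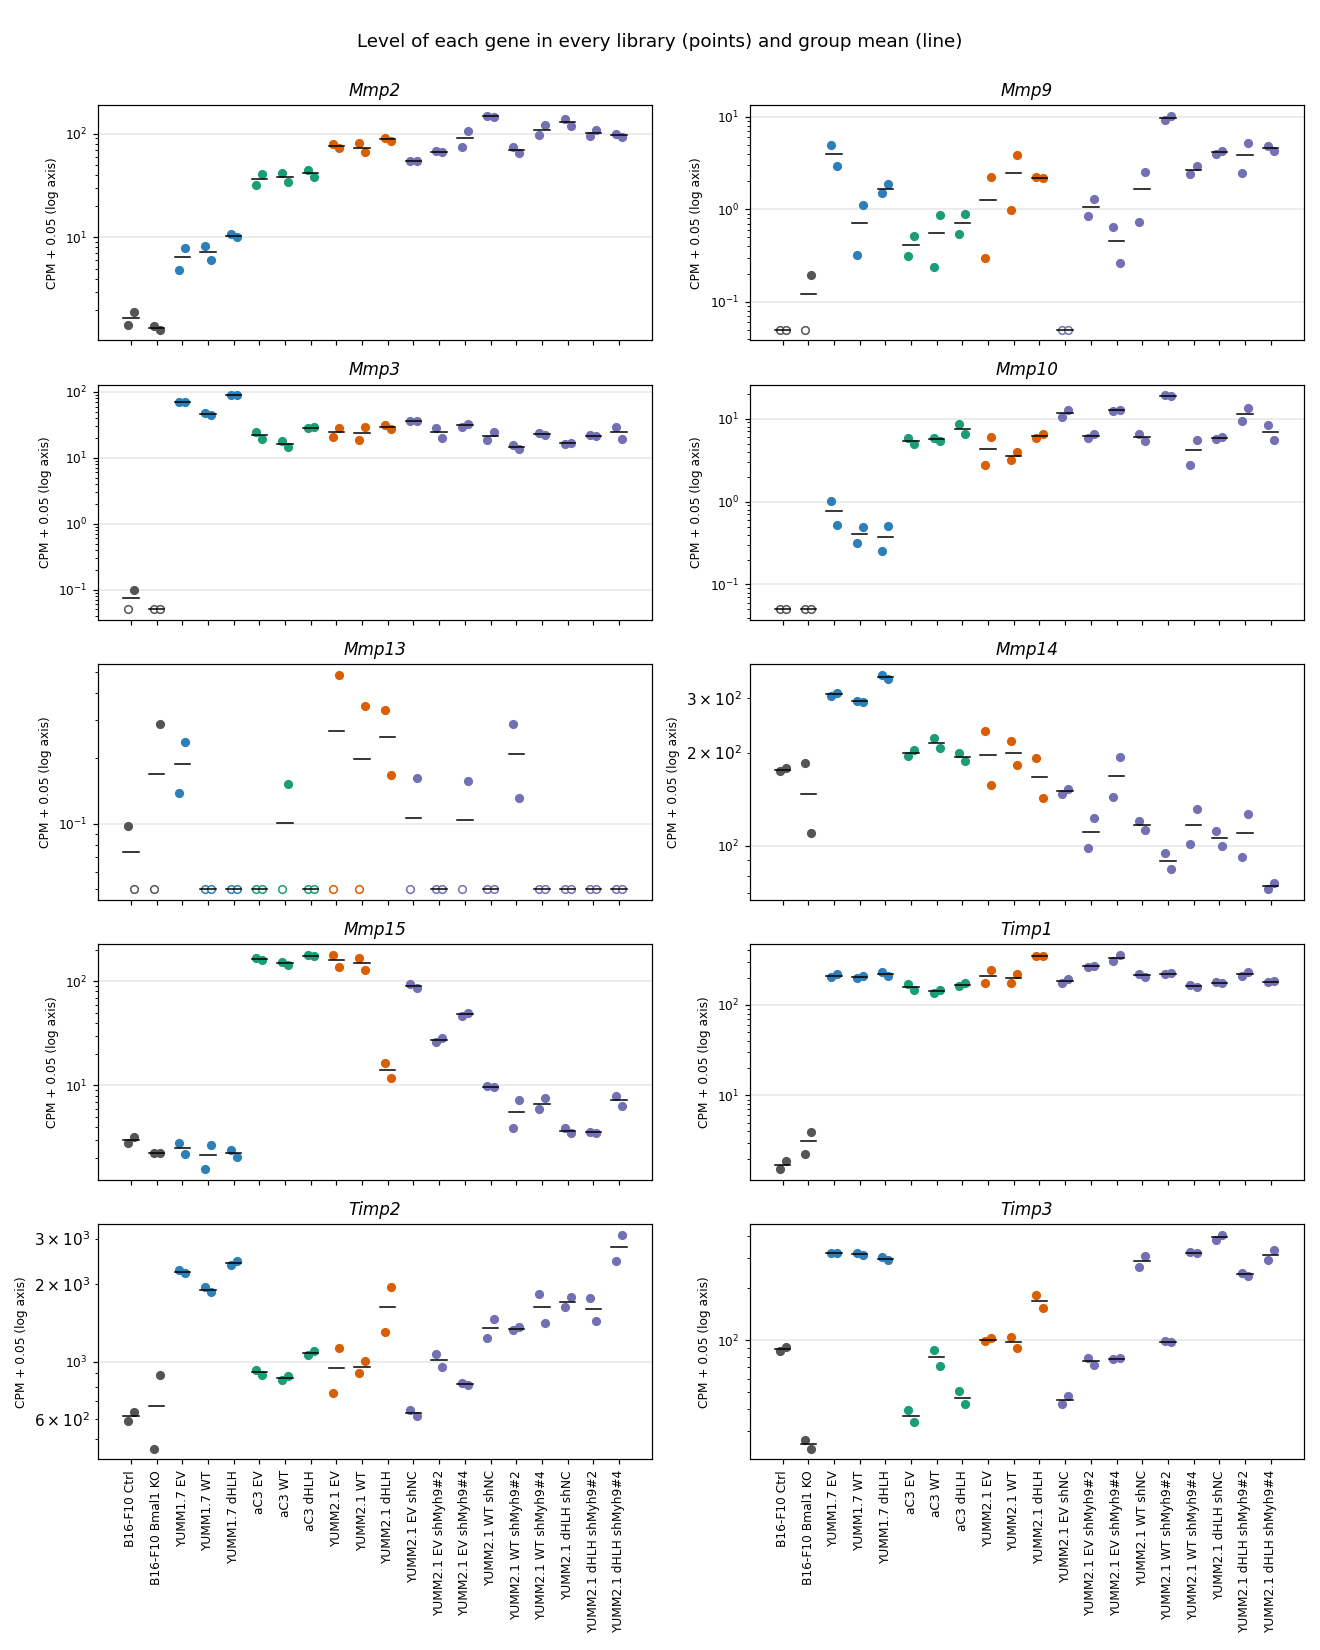
Level of each of the 10 genes (CPM + 0.05, log axis) in the 20 groups, with a point for each library, hollow where the library had 0 counts, and a line at the group mean. Mmp3, Mmp10 and Timp1 fall away in B16-F10, Mmp15 is low in B16-F10, YUMM1.7 and the hairpin cells with WT-Bmal1 or dHLH-Bmal1, and Mmp13 is near 0 throughout.

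The control cells of the lines differed in most of these genes. Between YUMM1.7 EV and YUMM2.1 EV cells, 37.1% of 15177 genes tested changed, and of the 9 members tested 4 were higher in YUMM1.7 and 3 lower. Higher were Mmp3 (+1.50 ± 0.19, adjusted p = 0.000205), Mmp14 (+0.65 ± 0.15, adjusted p = 0.00827), Timp2 (+1.24 ± 0.16, adjusted p = 0.000212) and Timp3 (+1.66 ± 0.10, adjusted p = 1.29e-06). Lower were Mmp15 (-6.01 ± 0.19, adjusted p = 1.64e-08), Mmp2 (-3.57 ± 0.23, adjusted p = 1.78e-06) and Mmp10 (-2.54 ± 0.57, adjusted p = 0.00738). YUMM1.7 had the stromelysin Mmp3 and the inhibitors Timp2 and Timp3 at higher levels and the gelatinase Mmp2 and Mmp15 at lower levels, with a member median of +0.65 against 0 for all genes. Timp1 was at 203 and 219 CPM in YUMM1.7 EV and 175 and 244 in YUMM2.1 EV cells and did not pass (+0.01 ± 0.15, adjusted p = 0.975). Without YUMM1.7-EV replicate 2, the differences of Mmp10 (adjusted p = 0.0648) and Mmp14 (adjusted p = 0.0541) missed the threshold, and without YUMM2.1-EV replicate 2 Mmp9 passed it (adjusted p = 0.00768), as did Mmp9 (+2.69, adjusted p = 0.0040) and Timp1 (+0.26, adjusted p = 0.0171) with exchanged labels. A line and the preparation of its libraries cannot be told apart.

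B16-F10 Ctrl cells had less of most members than either YUMM line. Against YUMM2.1 EV cells, where 54.3% of genes tested changed, Timp1 (-7.00 ± 0.22, adjusted p = 5.72e-09), Mmp15 (-5.78 ± 0.17, adjusted p = 4.34e-09), Mmp2 (-5.57 ± 0.26, adjusted p = 6.39e-08) and Timp2 (-0.65 ± 0.16, adjusted p = 0.0064) were lower. Mmp10 was at least 29.8-fold and Mmp9 at least 8.35-fold lower, computed against a floor of 3 counts per library. Mmp3, with 1 count in B16-F10 Ctrl, was lower by a ratio of 1019 (95% exact Poisson interval 183 to 40259, counting error only). These 3 genes passed the filter on low counts through the YUMM cells and so had to differ. With genes at 3 counts or fewer held at the floor, the member median was -4.90, against a median of -0.01 of the fitted values of all genes. That member median is the bound of Mmp10 itself and so no measured size. The level of Timp3 was 86.7 and 91.7 CPM in B16-F10 Ctrl and 98.7 and 102 in YUMM2.1 EV cells (-0.20 ± 0.10, adjusted p = 0.119). With YUMM2.1 EV shNC libraries in place of EV, Timp3 was instead higher in B16-F10 (+0.95, adjusted p = 2.08e-07), as was Mmp14 (+0.19, adjusted p = 0.0193), and Timp2 did not pass (adjusted p = 0.333). With exchanged labels Mmp14 (-0.40, adjusted p = 0.000177) and Timp3 (-0.22, adjusted p = 0.0293) were lower in B16-F10, and Mmp14 was so without YUMM2.1-EV replicate 2 (-0.45, adjusted p = 0.000457). Timp2 also missed the threshold without B16-F10 Ctrl replicate 1 (adjusted p = 0.0517).

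Against YUMM1.7 EV cells, where 54.5% of genes tested changed, B16-F10 Ctrl cells were lower in 8 of the 9 members tested. Of the 8, Mmp3, Mmp9 and Mmp10 passed the filter on low counts through the YUMM cells and so had to differ, which leaves 5. Timp1 (-7.01 ± 0.22, adjusted p = 5.70e-09), Mmp2 (-1.995 ± 0.28, adjusted p = 0.000204), Timp2 (-1.89 ± 0.16, adjusted p = 5.69e-06), Timp3 (-1.86 ± 0.10, adjusted p = 2.02e-07) and Mmp14 (-0.84 ± 0.15, adjusted p = 0.00114) were these 5. Mmp9 was at least 26.9-fold and Mmp10 at least 4.99-fold lower, and Mmp3 was lower by a ratio of 2878 (interval 517 to 113666). Mmp15 was low in both, at 2.73 and 3.15 CPM in B16-F10 Ctrl and 2.75 and 2.15 in YUMM1.7 EV cells (+0.23 ± 0.24, adjusted p = 0.447).

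The clone aC3 with empty vector had less Timp3 and Mmp2 than YUMM2.1 EV cells. Timp3 stood at 39.2 and 33.4 CPM against 98.7 and 102 (-1.46 ± 0.11, adjusted p = 0.000321), and Mmp2 at 32.2 and 40.6 against 78.9 and 72.6 (-1.04 ± 0.20, adjusted p = 0.0310). These were 2 of 9 members tested, where 1.75% of all genes changed, and the member median was -0.14 against -0.01. The difference in Timp3 passed in each fit that left out a library. That in Mmp2 was lost without B16-F10 Ctrl replicate 1 (adjusted p = 0.0595) or replicate 2 (0.0606) and without aC3-EV replicate 1 (0.360) or replicate 2 (0.197). Without YUMM2.1-EV replicate 1, Timp1 (-0.62, adjusted p = 0.00262), Timp2 (-0.30, adjusted p = 0.0402) and Mmp14 (+0.35, adjusted p = 0.0238) passed as well, and with YUMM2.1 EV shNC libraries in place of EV 7 members passed. Against those EV shNC libraries, at 42.9 and 47.3 CPM, the difference of Timp3 was -0.31 ± 0.10 and that of Mmp2 -0.58 ± 0.16, both still called. aC3 is a single clone, so the loss of Bmal1 and the choice of the clone cannot be told apart.

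In the libraries labelled Bmal1 KO of B16-F10, Timp3 was lower than in Ctrl. Its levels were 26.5 and 23.5 CPM against 86.7 and 91.7, without overlap (-1.84 ± 0.17, adjusted p = 0.0326), in a comparison where 0.440% of genes changed and 6 of the 10 members were tested. The difference was of like size without Ctrl replicate 1 (-1.90, adjusted p = 0.0938) and Ctrl replicate 2 (-1.80, adjusted p = 0.145), where it missed the threshold, and without KO replicate 1 (-1.92) or KO replicate 2 (-1.77), where it passed. Timp2 was at 459 and 888 CPM in the libraries labelled KO, on either side of the 589 and 637 CPM of Ctrl (+0.13 ± 0.33, adjusted p = 0.877). Its sign followed the replicate used, with +0.54 without KO replicate 1 (adjusted p = 5.96e-05) and -0.43 without KO replicate 2 (adjusted p = 0.00619). Without KO replicate 1, Timp1 (+1.22, adjusted p = 0.0227) and Mmp14 (-0.67, adjusted p = 5.02e-07) also passed, and Timp1 did so in a fit of all 40 libraries (+0.85, adjusted p = 0.0124). The median of the 6 members was -0.29 against -0.01 for all genes.

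In YUMM2.1 cells without hairpins, dHLH-Bmal1 went with a loss of Mmp15 and a gain of Timp1 and Timp3. Mmp15 was at 16.2 and 11.6 CPM in dHLH cells against 179 and 139 in EV cells (-3.48 ± 0.24, adjusted p = 0.00103). Timp1 was at 346 and 347 CPM against 175 and 244 (+0.75 ± 0.19, adjusted p = 0.0448), and Timp3 at 183 and 153 against 98.7 and 102 (+0.76 ± 0.14, adjusted p = 0.0170). For all 3 genes the libraries of the 2 groups did not overlap, and they were 3 of 9 members tested, with 13.2% of all genes called and a member median of +0.54 against -0.01. Timp2 was at 1303 and 1946 CPM against 755 and 1128 and did not pass (+0.81 ± 0.25, adjusted p = 0.0777), while it did with DESeq2 (adjusted p = 0.0158), with no filter (2.42e-06), with the replicate block (0.000686), in a fit of all 40 libraries (0.00542), with exchanged labels (+0.98, adjusted p = 0.00514), without both doubted libraries (+1.11, adjusted p = 0.0318) and without EV replicate 2 (+1.11, adjusted p = 0.0406).

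The fall of Mmp15 was kept with exchanged labels (-3.61), without both doubted libraries (-3.67) and in every fit that left out a library. The rise of Timp1 was +1.01 (adjusted p = 0.000162) with exchanged labels and +0.99 (adjusted p = 0.0229) without both, but missed the threshold without EV replicate 1 (+0.52, adjusted p = 0.195), WT replicate 1 (adjusted p = 0.0730), WT replicate 2 (0.0711), dHLH replicate 1 (0.109) or dHLH replicate 2 (0.137). The rise of Timp3 was +0.74 with exchanged labels (adjusted p = 0.00246), but missed the threshold without both doubted libraries (+0.77, adjusted p = 0.0668), without EV replicate 1 (0.0882) or without dHLH replicate 1 (0.0718). With exchanged labels, Mmp3 (+0.61, adjusted p = 0.0148) and Mmp10 (+1.08, adjusted p = 0.0324) rose as well.

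Against the libraries labelled WT, 13.0% of genes and 3 of 9 members were called. Mmp15 fell by 3.40 ± 0.24 on the log2 scale (adjusted p = 0.00113), Timp1 rose by 0.83 ± 0.19 (adjusted p = 0.0325) and Timp3 by 0.80 ± 0.14 (adjusted p = 0.0149). These comparisons share the dHLH libraries. The calls of both inhibitors were lost without WT replicate 1, without WT replicate 2 and without dHLH replicate 1, with adjusted p from 0.0625 to 0.254, and that of Timp1 also without dHLH replicate 2 (0.105) and without both doubted libraries (+0.67, adjusted p = 0.196). Timp2 did not pass (+0.78 ± 0.25, adjusted p = 0.0890), but did with DESeq2 (0.0211), with no filter (5.54e-06), with the replicate block (0.00112), in a fit of all 40 libraries (0.00787) and with exchanged labels (+0.62, adjusted p = 0.0485), where Mmp2 also passed (+0.37, adjusted p = 0.0419). Between the libraries labelled WT and EV, edgeR called 0% of the 14323 genes tested, with 98 at an unadjusted p under 0.05, and DESeq2 called 1 gene. With exchanged labels edgeR called 101 genes, none of them a member.

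Markers of other states moved with these genes. Sox10, a transcription factor of melanocytes and their precursors, was at 66.0 and 72.1 CPM in YUMM2.1 dHLH cells against 504 and 485 in EV cells, and the fibroblast gene sum rose as given above. Their part in the levels of Mmp15, Timp1 and Timp3 was not tested.

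In aC3, cells given WT-Bmal1 had more Timp3 than EV cells. Timp3 was at 87.9 and 71.3 CPM in WT cells against 39.2 and 33.4 in EV cells (+1.12 ± 0.13, adjusted p = 0.000109), which held in each fit that left out a library. It was 1 of 8 members tested, with 11.2% of all genes called and a member median of -0.01 against 0.01. Mmp3 was lower without passing (-0.46 ± 0.15, adjusted p = 0.0707), and passed with no filter (0.0344) and with the replicate block (0.0400). Between dHLH and EV cells none of the 8 members passed, with 10.9% of all genes called, and Mmp15 was at 180 and 174 CPM in dHLH cells against 168 and 161 (+0.10 ± 0.08, adjusted p = 0.474). Between dHLH and WT cells, where 0.877% of genes changed, Timp3 was lower, at 50.5 and 42.4 CPM (-0.77 ± 0.13, adjusted p = 0.00919), and Mmp3 higher, at 28.5 and 28.9 CPM against 17.8 and 14.6 (+0.83 ± 0.15, adjusted p = 0.0197). Without aC3-WT replicate 1 both differences missed the threshold (Timp3 adjusted p = 0.144, Mmp3 0.0748), and Mmp3 did so without aC3-WT replicate 2 (0.211) and in a fit of all 40 libraries (0.254). Timp2, at 1061 and 1101 CPM in dHLH cells, 925 and 889 in EV and 851 and 879 in WT cells, passed against WT with DESeq2 (adjusted p = 0.0120) and without aC3-dHLH replicate 1 (0.0234) or replicate 2 (0.0334), and against EV with DESeq2 (0.0396) and without aC3-dHLH replicate 1 (0.0248). Timp3 passed against EV without aC3-dHLH replicate 2 (0.0433) and with no filter (0.0461). With the replicate block Timp2 (0.0389) and Timp3 (0.0298) passed against EV and Timp2 (0.0330) against WT.

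The effect of dHLH-Bmal1 on Mmp15 differed between the lines. The difference of the dHLH effect between aC3 and YUMM2.1 was tested as an interaction, in which 15.5% of genes passed. For Mmp15 it was +3.597 ± 0.24 (adjusted p = 2.26e-07) and for Timp1 -0.66 ± 0.20 (adjusted p = 0.0347), which were 2 of 9 members tested. Mmp15 fell and Timp1 rose in YUMM2.1, while neither was called in aC3. There, Timp1 was at 160 and 174 CPM in dHLH and 169 and 146 in EV cells. The interaction of Mmp15 was +3.73 with exchanged labels and +3.74 without both doubted libraries. That of Timp1 was lost without YUMM2.1-EV replicate 1 (adjusted p = 0.107), YUMM2.1-dHLH replicate 1 (0.0524) or replicate 2 (0.0594), aC3-EV replicate 1 (0.128) or aC3-dHLH replicate 1 (0.117), while it was -0.91 with exchanged labels (adjusted p = 3.98e-05). Timp2 passed with exchanged labels (-0.72, adjusted p = 0.00866), without both doubted libraries (-0.89, adjusted p = 0.00886), without YUMM2.1-EV replicate 2 (0.0084) and without YUMM2.1-dHLH replicate 1 (0.0116).

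Between YUMM1.7 and YUMM2.1 the same interaction passed for 12.4% of genes and for 3 of 9 members, Mmp15 (+3.31 ± 0.40, adjusted p = 0.000102), Timp3 (-0.85 ± 0.17, adjusted p = 0.00394) and Timp1 (-0.68 ± 0.20, adjusted p = 0.0349). Mmp15 stood at 2.75 and 2.15 CPM in YUMM1.7 EV cells and at 2.36 and 1.99 in dHLH cells, so it had little room to fall in this line. With exchanged labels and without both doubted libraries the interaction passed for 7 members. That of Timp1 was lost in 8 of 18 fits without a library, which were the fits without YUMM2.1-EV replicate 1, YUMM2.1-dHLH replicate 2 and each library of YUMM1.7, with adjusted p from 0.0508 to 0.141. Without YUMM2.1-EV replicate 2, Mmp9 (adjusted p = 0.0343), Mmp10 (0.0353), Mmp14 (0.0191) and Timp2 (0.00435) passed, and Timp2 did so without YUMM2.1-dHLH replicate 1 (0.00539).

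In YUMM1.7 cells the stromelysin Mmp3 was called with both constructs, in opposite directions, and Timp2 with WT-Bmal1. Both comparisons share the EV libraries. It was at 69.6 and 69.8 CPM in EV cells, 48.4 and 44.4 in WT cells (-0.59 ± 0.08, adjusted p = 0.00592) and 88.7 and 88.3 in dHLH cells (+0.34 ± 0.07, adjusted p = 0.0484), without overlap between the 3 groups. Timp2 was lower in WT cells, at 1941 and 1857 CPM against 2257 and 2201 (-0.23 ± 0.04, adjusted p = 0.0221). With WT-Bmal1, 2 of 8 members tested were lower, with 0.138% of genes called, and with dHLH-Bmal1 1 of 8 was higher, with 0.630% called. Both changes of Mmp3 against EV were lost without EV replicate 1 (adjusted p = 0.164 and 0.363) or EV replicate 2 (0.0755 and 0.439), and its rise also without dHLH replicate 1 (0.244) or replicate 2 (0.265). That of Timp2 was lost without EV replicate 1 (0.588), EV replicate 2 (0.158) or WT replicate 2 (0.0754). Mmp9, at 55 and 31 counts in EV and 3 and 12 in WT cells, passed with no filter (-2.53, adjusted p = 6.97e-05) and without WT replicate 2. In a fit of all 40 libraries no member passed in these comparisons, and DESeq2 did not call the rise of Mmp3 (0.129).

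Between dHLH and WT cells of YUMM1.7, where 2.57% of genes changed, 3 of 8 members were higher in dHLH cells. They were Mmp3 (+0.93 ± 0.08, adjusted p = 3.54e-06), Timp2 (+0.35 ± 0.04, adjusted p = 9.03e-05) and Mmp14 (+0.26 ± 0.05, adjusted p = 0.00776), at 356 and 345 CPM of Mmp14 against 294 and 291. The differences of Mmp3 and Timp2 passed in each fit that left out a library, and that of Mmp14 was lost without dHLH replicate 1 (adjusted p = 0.0696) or replicate 2 (0.0530). In a fit of all 40 libraries none of the 3 passed, with an adjusted p of 0.0533 for Mmp3. The member median was +0.30 against 0 for all genes.

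**Figure D2:**
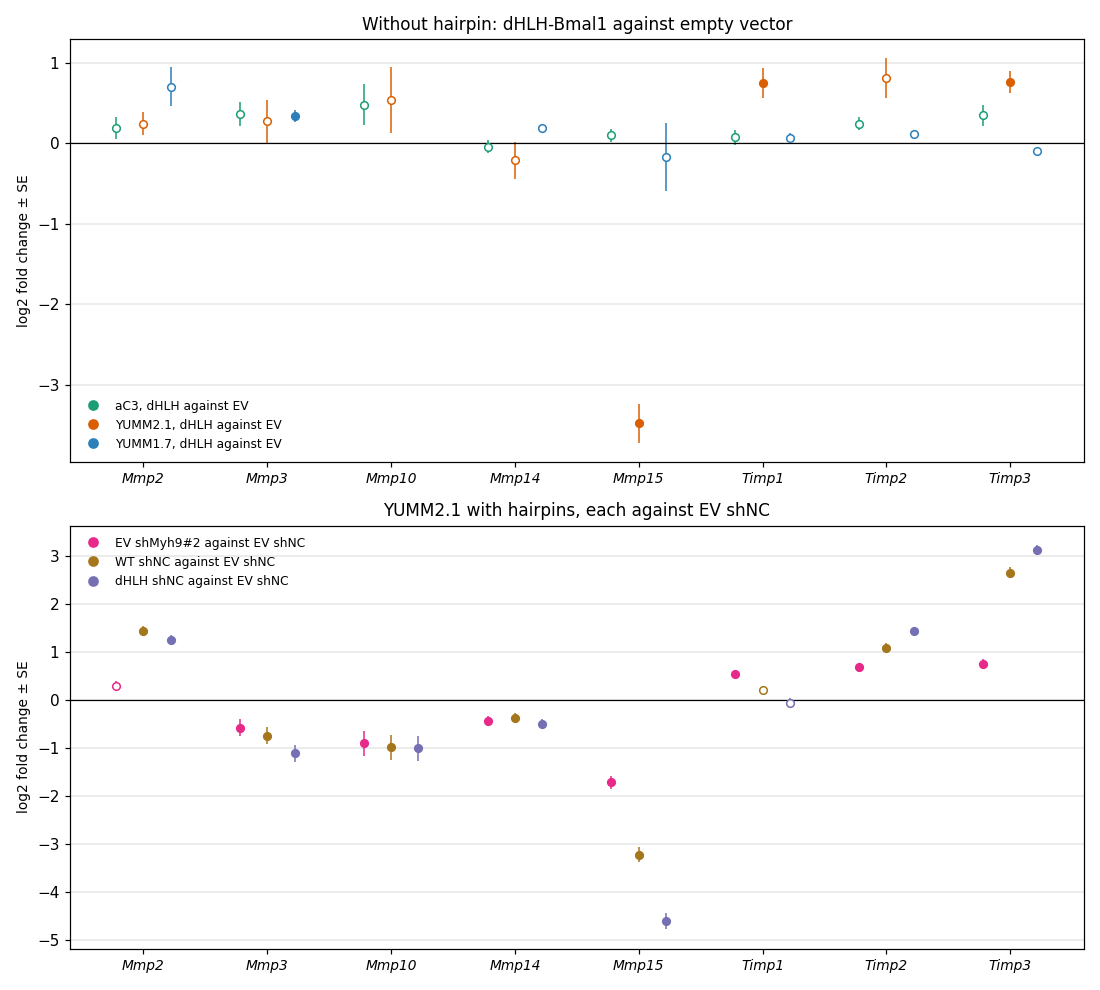
Log2 fold change ± SE of each member, filled where the adjusted p is under 0.05 and hollow where it is not, for dHLH-Bmal1 against empty vector in aC3, YUMM2.1 and YUMM1.7 (top) and for YUMM2.1 hairpin groups against EV shNC (bottom). Mmp15 is down by 3.48 in YUMM2.1 and near 0 in aC3 and YUMM1.7, and in the lower panel Mmp15 is below 0 and Timp2 and Timp3 above 0 in each comparison.

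In the hairpin set, WT and dHLH cells with shNC differed from EV cells with shNC in nearly all members. Mmp15 was at 93.9 and 86.8 CPM in EV shNC, 9.82 and 9.55 in WT shNC (-3.22 ± 0.15, adjusted p = 2.26e-10) and 3.81 and 3.41 in dHLH shNC cells (-4.61 ± 0.17, adjusted p = 3.31e-12). Timp3 was at 42.9 and 47.3 CPM in EV shNC, 263 and 308 in WT shNC (+2.66 ± 0.11, adjusted p = 4.98e-11) and 381 and 408 in dHLH shNC cells (+3.13 ± 0.11, adjusted p = 1.46e-12). The order EV, WT, dHLH was thus downward for the membrane-type enzyme and upward for the inhibitor, without overlap between groups. Timp2 was at 649 and 613 CPM in EV shNC, 1239 and 1463 in WT shNC and 1623 and 1772 in dHLH shNC cells, and Mmp2 at 54.3 and 54.7, 149 and 146, and 139 and 118 CPM.

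By class, and within the hairpin set only, the gelatinase Mmp2 and the inhibitors Timp2 and Timp3 were higher in both groups. The stromelysins and membrane-type enzymes were lower. Mmp2 rose by 1.43 ± 0.11 with WT-Bmal1 (adjusted p = 3.26e-08) and by 1.25 ± 0.10 with dHLH-Bmal1 (adjusted p = 8.81e-08), and Timp2 by 1.10 ± 0.09 (adjusted p = 1.17e-07) and 1.43 ± 0.09 (adjusted p = 3.08e-09). Mmp3 fell by 0.74 ± 0.18 (adjusted p = 0.00506) and 1.11 ± 0.19 (adjusted p = 0.00017), Mmp10 by 0.99 ± 0.26 (adjusted p = 0.00874) and 1.00 ± 0.26 (adjusted p = 0.00642), and Mmp14 by 0.37 ± 0.11 (adjusted p = 0.0164) and 0.50 ± 0.11 (adjusted p = 0.00211). Mmp9, at 0 counts in both EV shNC libraries, was at least 4.53-fold higher in WT shNC (5 and 21 counts) and at least 11.6-fold higher in dHLH shNC cells (57 and 26 counts), and it passed the filter only through the groups where it was high. Timp1 did not pass in either comparison. In each, 8 of 9 members were called, Mmp9 among them, against 31.9% of genes with WT-Bmal1 and 34.5% with dHLH-Bmal1, and the comparisons share the EV shNC libraries. YUMM2.1 cells without hairpins differed in part. With dHLH-Bmal1, Mmp15 fell and Timp3 rose there too, but Mmp3 was at 31.3 and 27.3 CPM against 20.6 and 28.8 in EV cells. Mmp10 was at 5.75 and 6.47 CPM against 2.67 and 5.95. Timp1 was at 177 and 176 CPM in dHLH shNC and 176 and 192 in EV shNC cells. Its rise was called only without hairpins, at 346 and 347 CPM against 175 and 244. Mmp2, at 91.4 and 85.3 CPM against 78.9 and 72.6, was not called without hairpins. No member was called there between the libraries labelled WT and EV.

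The weaker calls depended on single libraries. With WT-Bmal1, Mmp3 was lost without WT shNC replicate 1 (adjusted p = 0.0508), Mmp10 without EV shNC replicate 2 (0.0925) or WT shNC replicate 2 (0.0743), and Mmp14 without EV shNC replicate 1 (0.0658), EV shNC replicate 2 (0.0992) or WT shNC replicate 2 (0.0932). With dHLH-Bmal1, Mmp10 was lost without EV shNC replicate 2 (0.0761) or dHLH shNC replicate 1 (0.0654). Mmp14 missed the threshold with either construct in a fit of all 40 libraries (0.178 and 0.0585), and with WT-Bmal1 in a fit of all 9 hairpin groups (0.103). The calls of Mmp2, Mmp15, Timp2 and Timp3 were kept without each library.

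Between dHLH shNC and WT shNC cells, where 4.63% of genes changed, 3 of 9 members differed. Mmp15 was lower in dHLH shNC cells (-1.39 ± 0.20, adjusted p = 0.000596), and Timp3 (+0.47 ± 0.10, adjusted p = 0.00886) and Timp2 (+0.34 ± 0.09, adjusted p = 0.0387) were higher. Timp3 was lost without dHLH shNC replicate 1 (adjusted p = 0.0586) or replicate 2 (0.130). Timp2 was lost without EV shNC replicate 1 (0.0501), WT shNC replicate 1 (0.173), dHLH shNC replicate 1 (0.118) or replicate 2 (0.304), and in the fits of all 9 hairpin groups (0.269) and all 40 libraries (0.563). Sox10 was at 327 and 334 CPM in EV shNC, 99.0 and 100.3 in WT shNC and 22.7 and 26.1 in dHLH shNC cells, and the summed fibroblast genes were at 193 and 164, 377 and 398, and 611 and 593 CPM. Their part in these differences was not tested.

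**Figure D3:**
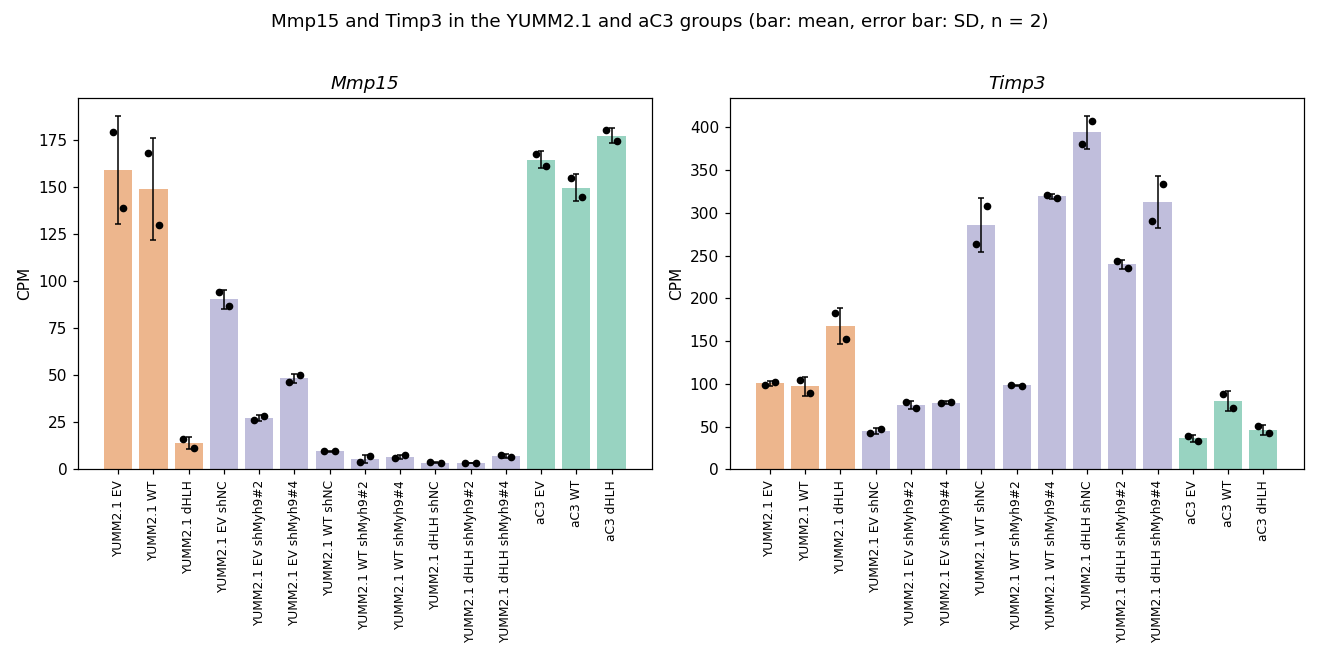
Levels in CPM of Mmp15 and Timp3 in the YUMM2.1 and aC3 groups, with bars at the group mean, error bars of 1 SD (n = 2) and a point for each library. Mmp15 drops from above 100 CPM in aC3 and in the YUMM2.1 cells labelled EV and WT to 13.9 in dHLH cells and to 3.61 in dHLH shNC cells, where Timp3 reaches 394.

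In EV cells, Mmp15 was lower and Timp1 and Timp3 were higher with either hairpin against Myh9 than with shNC, and Timp2 was higher with shMyh9#2. The EV shNC libraries also served as the control above. With shMyh9#2, Mmp15 was at 26.1 and 28.5 CPM against 93.9 and 86.8 with shNC (-1.72 ± 0.14, adjusted p = 6.26e-07). The 3 inhibitors rose, Timp3 to 79.0 and 72.2 CPM (+0.75 ± 0.11, adjusted p = 0.000195), Timp2 to 1068 and 953 CPM (+0.68 ± 0.09, adjusted p = 7.47e-05) and Timp1 to 263 and 272 CPM from 176 and 192 (+0.55 ± 0.09, adjusted p = 0.000501). The libraries of both groups did not overlap for these genes, and the calls of Mmp15 and the 3 inhibitors held without each library. Mmp9 was at least 2.89-fold higher, on 6 and 10 counts against none. Sox10 went from 327 and 334 CPM with shNC to 194 and 179 with shMyh9#2 and 222 and 273 with shMyh9#4, and the fibroblast sum from 193 and 164 to 207 and 232 and to 211 and 233 CPM. Their part was not tested.

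Mmp3, at 28.4 and 20.02 CPM against 35.6 and 36.5 (-0.57 ± 0.18, adjusted p = 0.0432), Mmp10, at 5.86 and 6.55 against 10.5 and 12.8 (-0.90 ± 0.26, adjusted p = 0.0289), and Mmp14, at 98.4 and 123 against 147 and 153 (-0.43 ± 0.11, adjusted p = 0.0145), fell with shMyh9#2. In all, 8 of 9 members were called, with 14.4% of all genes and a member median of +0.30 against 0.01. The 8 include Mmp9, which had no count in EV shNC cells and passed the filter only through the groups where it was high. Each of these falls was lost without EV shNC replicate 1 (adjusted p from 0.0742 to 0.158) or EV shNC replicate 2 (0.0997 to 0.209). Mmp3 was also lost without EV shMyh9#2 replicate 2 (0.316), dHLH shNC replicate 1 (0.0564) or dHLH shNC replicate 2 (0.0608), Mmp10 without EV shMyh9#2 replicate 1 (0.159) or replicate 2 (0.0721), and Mmp14 without EV shMyh9#2 replicate 1 (0.191). The call of Mmp9 was lost without EV shNC replicate 1 (0.0921), EV shNC replicate 2 (0.0941) or EV shMyh9#2 replicate 2 (0.0656). In a fit of all 9 hairpin groups the 3 falls missed the threshold (0.0612 to 0.118), with DESeq2 Mmp3 (0.0645) and Mmp10 (0.0685) did, and in a fit of all 40 libraries Mmp9 (0.0533) and Timp2 (0.0584) did as well.

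The other hairpin, shMyh9#4, gave 4 of 9 members, with 1.71% of genes called. Timp1 was at 304 and 358 CPM (+0.83 ± 0.10, adjusted p = 8.93e-05), Timp3 at 77.4 and 79.2 (+0.78 ± 0.11, adjusted p = 0.000448), Mmp15 at 46.6 and 50.1 (-0.92 ± 0.19, adjusted p = 0.0131) and Mmp2 at 74.4 and 105 (+0.70 ± 0.15, adjusted p = 0.0134). Timp2, at 827 and 810 CPM against 649 and 613, did not pass (+0.36 ± 0.13, adjusted p = 0.311), but did with no filter (0.0177). The rises of Timp1 and Timp3 held without each library. The fall of Mmp15 was lost without EV shNC replicate 1 (adjusted p = 0.200), EV shNC replicate 2 (0.0964), EV shMyh9#4 replicate 1 (0.107) or replicate 2 (0.122), and the rise of Mmp2 without EV shNC replicate 1 (0.150), EV shNC replicate 2 (0.170) or EV shMyh9#4 replicate 2 (0.372), and in a fit of all 40 libraries (0.0519). With Mmp9, at 0 counts in EV shNC, held at the floor, the member median was +0.20, the bound of Mmp9 itself, against 0 for all genes. The hairpins left unlike amounts of Myh9, 239 CPM with shMyh9#2 and 481 CPM with shMyh9#4 on average. Effects of a hairpin other than the loss of Myh9 were not tested.

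In WT cells, shMyh9#2 lowered Timp3 and Mmp2 and raised Mmp9 and Mmp10. Timp3 was at 98.8 and 97.6 CPM against 263 and 308 with shNC (-1.55 ± 0.10, adjusted p = 6.29e-08) and Mmp2 at 73.9 and 64.4 against 149 and 146 (-1.10 ± 0.14, adjusted p = 0.00013). Mmp10 was at 19.03 and 18.7 CPM against 6.41 and 5.37 (+1.68 ± 0.27, adjusted p = 0.00131) and Mmp9 at 9.10 and 10.3 against 0.682 and 2.51 (+2.56 ± 0.52, adjusted p = 0.00853). The gelatinases moved apart, and the libraries with and without shMyh9#2 did not overlap for any of the 4 genes. Mmp15, at 3.86 and 7.17 CPM against 9.82 and 9.55 (-0.84 ± 0.23, adjusted p = 0.0467), passed in 6 of the 18 fits that each left out a library. It was lost without WT shNC replicate 1 (adjusted p = 0.179), WT shNC replicate 2 (0.192), WT shMyh9#2 replicate 1 (0.438) and 9 libraries of other groups, namely all of EV cells, both of dHLH shNC and dHLH shMyh9#4 replicate 1 (0.0515 to 0.0771), and with the replicate block (0.0534). The call of Mmp9 was lost without WT shNC replicate 1 (+1.94, adjusted p = 0.0926) or WT shMyh9#2 replicate 2 (+2.49, adjusted p = 0.0646). In all, 5 of 9 members were called, with 4.76% of genes, and the member median was -0.39 against 0. Sox10 was at 34.9 and 37.0 CPM against 99.0 and 100.3 and the fibroblast sum at 507 and 503 CPM against 377 and 398, and their part was not tested. With shMyh9#4, where 0.236% of genes changed, none of the 9 members passed, and Timp3 was at 321 and 317 CPM. DESeq2 called Timp1 there (-0.38, adjusted p = 0.0328), at 167 and 159 CPM against 221 and 206.

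In dHLH cells, shMyh9#2 changed 1 of 9 members, with 0.559% of genes called, as Timp3 went to 244 and 236 CPM from 381 and 408 (-0.73 ± 0.10, adjusted p = 0.00208). That call was lost without dHLH shNC replicate 2 (adjusted p = 0.0747). Mmp15 stayed between 3.41 and 3.81 CPM in these 4 libraries. With shMyh9#4, where 15.1% of genes were called, 4 of 9 members passed. Timp2 was at 2464 and 3108 CPM against 1623 and 1772 (+0.72 ± 0.13, adjusted p = 0.00263), Mmp15 at 7.93 and 6.35 against 3.81 and 3.41 (+0.94 ± 0.29, adjusted p = 0.0344), Timp3 at 291 and 334 (-0.33 ± 0.10, adjusted p = 0.0376) and Mmp14 at 72.2 and 75.6 against 111 and 99.95 (-0.51 ± 0.17, adjusted p = 0.0496). Each was lost without 1 or more libraries. Timp2 was lost without dHLH shMyh9#4 replicate 2 (adjusted p = 0.0735) and Mmp15 without any library of the 2 groups (0.125 to 0.150). Timp3 was lost without any library of the 2 groups (0.0820 to 0.190), EV shNC replicate 2 (0.0522), WT shMyh9#2 replicate 1 (0.0556) or replicate 2 (0.0559). Mmp14 was lost in 11 of 18 such fits, namely those without any library of the 2 groups (0.0906 to 0.287), either library of EV shNC, WT shNC or WT shMyh9#2, or EV shMyh9#2 replicate 2 (0.0516 to 0.0780). Mmp2 was called without EV shMyh9#4 replicate 1 (-0.42, adjusted p = 0.0372) or replicate 2 (0.0445). With DESeq2 size factors Timp3 (0.0523) and Mmp14 (0.0573) missed the threshold, as did Timp3 with no filter (0.0540) and Mmp14 in a fit of all 40 libraries (0.0838). Sox10 was at 46.1 and 45.1 CPM with shMyh9#4, 14.4 and 12.4 with shMyh9#2 and 22.7 and 26.1 with shNC, and its part was not tested. Myh9 was at 681 and 645 CPM with shMyh9#4 and 292 and 266 with shMyh9#2, so the hairpin with more calls left more Myh9. The dHLH shMyh9#4 libraries held 3643332 and 6001340 counts. The part of Myh9 and of depth in these calls was not tested.

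The effect of shMyh9#2 differed between dHLH and EV cells in 5 of 9 members, tested as an interaction in which 3.29% of genes passed. The 5 include Mmp9, which had 0 counts in both EV shNC libraries and passed the filter only through other groups. The difference, dHLH minus EV, was -1.47 ± 0.15 for Timp3 (adjusted p = 2.23e-05), +1.91 ± 0.40 for Mmp10 (adjusted p = 0.0120), +1.64 ± 0.35 for Mmp15 (adjusted p = 0.0140) and -0.77 ± 0.19 for Timp2 (adjusted p = 0.0335). Mmp9 passed too (adjusted p = 0.0368), but its fitted value rests on the libraries at 0 counts. Timp3 therefore rose with shMyh9#2 in EV cells, where it was low, and fell in dHLH cells, where it was high, and its interaction held without each library. Mmp10 was lost without EV shNC replicate 2, EV shMyh9#2 replicate 1, dHLH shNC replicate 1 or dHLH shMyh9#2 replicate 2 (adjusted p from 0.0638 to 0.0895). Mmp15 was lost without EV shNC replicate 1, EV shMyh9#2 replicate 1, either library of dHLH shNC or dHLH shMyh9#2 replicate 2 (0.0589 to 0.124). Timp2 was lost without any library of EV shNC, EV shMyh9#2, WT shMyh9#2 or dHLH shNC and without dHLH shMyh9#2 replicate 2 (0.0539 to 0.156), and Mmp9 without any library of the same 4 groups (0.0567 to 0.162). In a fit of all 40 libraries Timp2 (0.189) and Mmp9 (0.122) were lost.

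**Figure D4:**
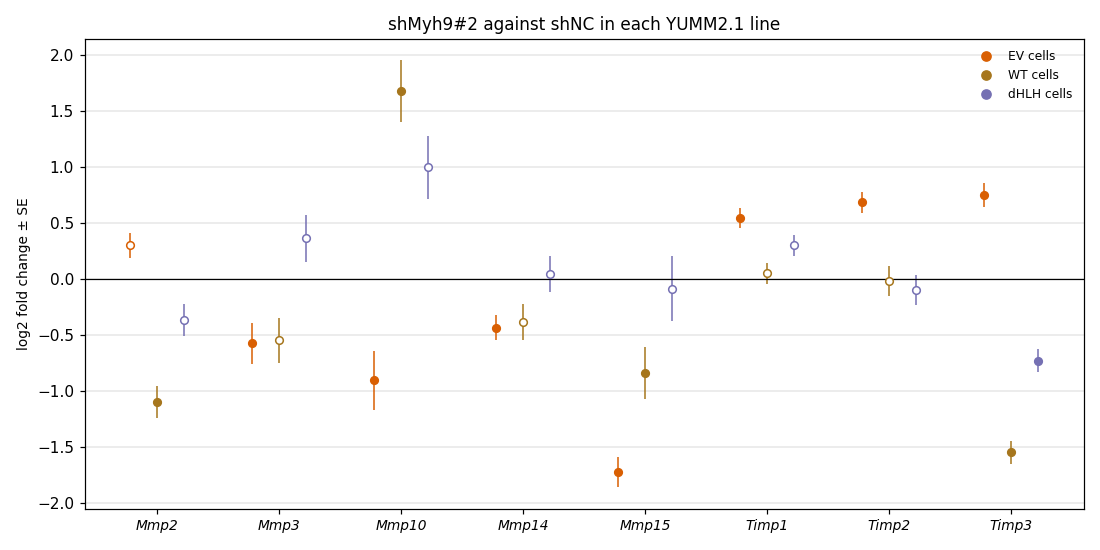
Log2 fold change ± SE of each member with shMyh9#2 against shNC in EV, WT and dHLH cells of YUMM2.1, filled where the adjusted p is under 0.05 and hollow where it is not. Timp3 is up by 0.75 in EV cells and down by 1.55 in WT and 0.73 in dHLH cells, and Mmp15 is down by 1.72 in EV cells and near 0 in dHLH cells.

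Of 17 other genes of the families, Mmp7, Mmp20, Mmp21, Mmp25 and Mmp27 had no count in any library and Mmp1b, Mmp8, Mmp24 and Timp4 had at most 7 counts in a library. The membrane-anchored Mmp16 and Mmp17 were present in most, the latter in every library with 10 or more counts. In YUMM2.1 dHLH cells against EV cells, where 13.2% of all genes were called, 3 of 7 tested fell and none rose, namely Mmp17 (-1.96 ± 0.20, adjusted p = 0.0028), Mmp16 (-1.82 ± 0.22, adjusted p = 0.0046) and Mmp19 (-1.69 ± 0.23, adjusted p = 0.0064). In aC3 with dHLH-Bmal1, with 10.9% called, 3 of 5 rose and none fell, namely Mmp1a (+0.51), Mmp17 (+0.46) and Mmp16 (+0.41), and with WT-Bmal1 Mmp16 (+0.77) and Mmp17 (+0.51) rose. In the interaction of aC3 and YUMM2.1, 4 of 7 passed, against 15.5% of all genes, each as a larger value in aC3. In the hairpin set 4 of 6 fell with WT-Bmal1 (31.9% of all genes called) and 4 of 6 with dHLH-Bmal1 (34.5%), among them Mmp17 (-1.27 and -2.35), and with shMyh9#2 in EV cells, with 14.4% called, Mmp17 (-0.79) and Mmp16 (-0.52) fell.

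Among 18 activators, receptors and other regulators of MMPs, the matrix protein Thbs1 and Lrp1, a receptor that takes up MMPs and their inhibitors, rose in dHLH cells of YUMM2.1. Against EV, 2 of 11 rose and 1 fell, with 13.2% of all genes called and Thbs1 at +2.35 ± 0.25, Lrp1 at +1.39 ± 0.20 and the matrix protein Thbs2 at -1.09 ± 0.18. In the hairpin set against EV shNC, 4 of 11 rose and 4 fell with WT-Bmal1 (31.9% of all genes called), and 3 rose and 3 fell with dHLH-Bmal1 (34.5%), where Thbs1 (+2.25), the plasminogen activator Plat (-1.56) and Lrp1 (+1.32) changed most. With shMyh9#2 in EV cells 2 rose and 2 fell, with 14.4% of all genes called, among them Plat (-1.64), Lrp1 (+0.93) and Thbs2 (-0.69). Plat also fell in aC3, by 1.48 with WT-Bmal1 and by 0.86 with dHLH-Bmal1. In YUMM1.7, the plasminogen activator Plau was higher in dHLH than in WT cells (+1.39), as was Col18a1 (+0.18). Leaving out a library ended some of these calls by edgeR's quasi-likelihood test. Thbs2 in YUMM2.1 was lost without EV replicate 1 or dHLH replicate 2 (adjusted p of at most 0.0631). Plat was lost in aC3 dHLH cells without EV or dHLH replicate 2 (at most 0.229), in dHLH shNC without EV shNC or dHLH shNC replicate 1 (at most 0.0528), and in EV shMyh9#2 without EV shNC or EV shMyh9#2 replicate 1 (at most 0.0970). Col18a1 was lost without any one of 5 libraries, both of EV, both of dHLH and WT replicate 2 (at most 0.302).

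Of 20 ADAM and ADAMTS proteases, a related family that Timp3 inhibits in part, 4 of 16 rose and 5 fell in YUMM2.1 dHLH cells against EV cells (13.2% of all genes called), with falls of Adam23 (-3.54 ± 0.48), Adamts9 (-2.84 ± 0.24) and Adam12 (-2.61 ± 0.24). In aC3 with dHLH-Bmal1, 4 of 15 rose and none fell (10.9% of all genes called), and Adam23 (+0.60) and Adam12 (+0.53) were among those that rose. In the hairpin set, 3 of 17 rose and 7 fell with dHLH-Bmal1 (34.5% of all genes called), and 2 rose and 6 fell with shMyh9#2 in EV cells (14.4%), where Adamts5 (-1.24), Adam12 (-1.09) and Adamts4 (-1.04) fell most. Of 15 AP-1, ETS and Runx factors, 4 rose and 2 fell in YUMM2.1 dHLH cells, again beside 13.2% of all genes, with Etv5 (-1.85), Junb (+1.48) and Fosl2 (+1.40) first. The AP-1 subunit Fosl1 fell with WT-Bmal1 in aC3 (-1.45) and in the hairpin set (-1.43) and with shMyh9#2 in EV cells (-0.63). It was 2.08 ± 0.13 higher on the log2 scale in YUMM1.7 EV than in YUMM2.1 EV cells.

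Mmp3, Timp1 and Mmp10 had the widest range of group means, 8.92, 7.56 and 6.70 on the log2 scale. Over the 20 groups, the genes with the most similar pattern among 16685 were Atp10a, Pxdn and Tgfbi for Mmp3 (Pearson r = 0.989, 0.988 and 0.986), Spp1, Gm28875 and Trim16 for Timp1 (0.990, 0.988 and 0.988) and Add2, Fhod3 and Gpr149 for Mmp10 (0.967, 0.963 and 0.959). Among the members, Mmp3 and Timp1 (r = 0.955), Mmp2 and Mmp10 (0.911) and Timp2 and Timp3 (0.850) were most alike. The groups share cell lines, and both B16-F10 groups near 0 set much of the range for Mmp3, Timp1 and Mmp10, so these values are descriptions.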

How the data were processed

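QuantSeq 3′ FWD libraries of DNase-treated TRIzol RNA were sequenced as single reads. The authors aligned the reads with bowtie2 to mm10 and counted them per gene with RSEM (1.2.3 in the submitters' processing notes), and deposited raw counts as whole numbers for 51789 genes in 40 libraries; the strand setting and annotation release are not given in the sources used here. The authors tested with DESeq2, and no test column was used. Counting the 3′ end makes CPM independent of transcript length.

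Of the identifiers, 51596 matched a symbol (99.63%). Counts were filtered with filterByExpr, scaled with TMM and tested with edgeR 4.0.16 (quasi-likelihood F test, R 4.3.3) in a fit per cell line or hairpin set, with Benjamini-Hochberg adjustment over all genes tested and a threshold of 0.05, after tests on simulated data. Levels are CPM after TMM over all 40 libraries (mean ± SD, n = 2), log levels used a prior count of 2, and a floor of 3 counts per library stood in for 0. Alternatives were DESeq2 1.42.0 (Wald test and size factors), no filter, the replicate block, other sets of libraries in the fit, exchanged labels, and leaving out each library.

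The members and lists were chosen with earlier results of these data known. All 10 members were named, and of each list at most 3 called genes per comparison with the largest absolute change among genes at 1 CPM or more, with Arntl, Myh9, Sox9 and Sox10 only beside a result. For the 3 members with the widest range, the 3 genes with the most similar pattern were named. Sequences and motifs came from RefSeq promoter windows of GRCm38.p6. An allele of the YUMM lines and a gene of the list of MMP regulators are not reported here, and that gene was left out of the list's counts.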

Additional observations from a re-analysis of the deposited data

Results flagged for a closer look

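The following results were taken up because an effect differed between cell lines or cell states by a test of the difference itself, an interaction term in edgeR. The effect of shMyh9#2 in dHLH cells minus that in EV cells was -1.47 for Timp3 (adjusted p = 2.23e-05), 1.91 for Mmp10 (adjusted p = 0.0120), 1.64 for Mmp15 (adjusted p = 0.0140), -0.77 for Timp2 (adjusted p = 0.0335) and -6.24 for Mmp9 (adjusted p = 0.0368), where the last is a fitted value on libraries at 0 counts and no measure of size.

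The effect of dHLH-Bmal1 in aC3 minus that in YUMM2.1 was 3.597 for Mmp15 (adjusted p = 2.26e-07) and -0.66 for Timp1 (adjusted p = 0.0347). In YUMM1.7 minus YUMM2.1 it was 3.31 for Mmp15 (adjusted p = 0.000102), -0.85 for Timp3 (adjusted p = 0.00394) and -0.68 for Timp1 (adjusted p = 0.0349). Mmp15 was already at 2.75 and 2.15 CPM in YUMM1.7 EV cells, on 31 and 23 counts, against 179 and 139 CPM in YUMM2.1 EV cells. It thus had little room to fall in YUMM1.7. The interactions of Mmp15 with dHLH-Bmal1 held in each fit that left out a library, with exchanged labels and without both doubted libraries. That of Timp3 between YUMM1.7 and YUMM2.1 did so too, while those of Timp1 did not hold in each fit without a library. Of the differences in the shMyh9#2 effect, only that of Timp3 held in each such fit. Groups of 2 libraries allow no check for a library far from the others.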

How the results depend on the processing

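Depth limited Mmp9 and Mmp13, and 2 libraries per group limited every call. Of 91 calls of members, 51 were kept in every fit that left out a library and 40 were lost in 1 or more. The count of members called changed as follows. With all 40 libraries in a fit it was 2 for B16-F10, 1 for aC3 dHLH against WT, 0 for the 3 YUMM1.7 comparisons and 3 for EV shMyh9#2 and for the difference of the shMyh9#2 effect. All 9 hairpin groups in a fit gave 5 for EV shMyh9#2. DESeq2's Wald test gave 1 for aC3 dHLH against EV, 0 for YUMM1.7 dHLH against EV and 1 for WT shMyh9#4, its size factors gave 2 for dHLH shMyh9#4, and no filter gave 2 and 1 for aC3 WT and dHLH against EV. With exchanged labels the counts were 6 and 5 for YUMM2.1 dHLH against EV and WT and 7 for the dHLH effect of YUMM1.7 minus YUMM2.1, and 7 for that difference without both doubted libraries. With EV shNC in place of EV, aC3 against YUMM2.1 had 7 called, with Mmp10 at -1.12 and Timp2 at 0.53 in place of the opposite sign, and B16-F10 against YUMM2.1 had Mmp14 at 0.19 and Timp3 at 0.95, also reversed, and Mmp9 at 0, as neither group then held a count of it. Whether replicate numbers pair libraries was checked by the correlation of deviations, whose mean was 0.318 in YUMM2.1 and between -0.019 and 0.09 in the other fits. Since groups share only 2 numbers, the fit with the replicate block is no paired design, and it gave 2 and 2 calls for aC3 WT and dHLH against EV, 1 and 0 for YUMM1.7 WT and dHLH against EV. It also called Timp2 in YUMM2.1 dHLH against EV and WT (adjusted p = 0.000686 and 0.00112), where the replicate number went with the libraries at r = 0.181 to 0.393 over genes.

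Without a library in turn, the counts ran as follows. They were 0 to 4 for B16-F10, where Timp2 ran from -0.43 to 0.54, 0 to 1 for aC3 dHLH against EV, 0 to 3 for aC3 dHLH against WT and 1 for WT against EV. They were 1 to 4 and 1 to 3 for YUMM2.1 dHLH against EV and WT, 0 to 2, 0 to 1 and 2 to 3 for YUMM1.7, 4 to 8 for EV shMyh9#2, 6 to 8 and 7 to 8 for WT and dHLH shNC against EV shNC, and 1 to 3 between these. They were 2 to 4 for EV shMyh9#4, 3 to 5 for WT shMyh9#2, 0 to 1 and 0 to 5 for dHLH shMyh9#2 and shMyh9#4, and 1 to 5 for the difference of the shMyh9#2 effect. They were 5 to 8, 6 to 8 and 1 to 5 for YUMM1.7, B16-F10 and aC3 against YUMM2.1, and 1 to 3 and 2 to 7 for the differences of the dHLH effect in aC3 and YUMM1.7. The cause of these changes was not tested.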
